A study of Mus musculus with 6 samples.

Results

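The genes of MHC class II presentation were examined in macrophages of the healing infarct with and without the α5 integrin chain. The group held 10 genes, H2-Aa, H2-Ab1, H2-Eb1, H2-DMa, H2-DMb1, H2-DMb2, H2-Oa, H2-Ob, Cd74 and Ciita, chosen by symbol from the 54532 genes of the count table. The data were 6 RNA-seq libraries of cardiac cells from C57BL/6 mice aged 12 weeks, taken 7 days after the left anterior descending coronary artery had been tied off for good. In the ITGA5 fl/fl group, with 3 libraries, Itga5 is floxed but no Cre is present. The Myα5KO group, also with 3 libraries, carries the same floxed alleles together with LyzM-Cre, which deletes the gene in cells that express lysozyme M, that is, in macrophages and other myeloid cells. Both groups underwent infarction, and no uninjured heart enters the comparison. The cells were a Ly6G- CD11b+ fraction obtained on magnetic columns, a gate that monocytes, some dendritic cells and other CD11b-bearing cells also pass.

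MHC class II molecules carry peptides of ingested proteins to the cell surface, where CD4+ T cells recognize them. An α and a β chain pair in the endoplasmic reticulum with the invariant chain Cd74, which blocks the groove and directs the complex to endosomes. There proteases trim Cd74 to a short remnant, H2-DM exchanges that remnant for a peptide, and H2-DO restrains H2-DM. The transactivator Ciita sets the output of the whole set: it binds no DNA itself, and docks on factors that sit on the X and Y boxes ahead of each class II gene. In the infarcted heart class II is carried by dendritic cells, by B cells and by part of the macrophages.

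Itga5 averaged 607 ± 43.2 CPM (read counts scaled to library size; SD, n = 3) in the floxed controls. In Myα5KO it averaged 48.7 ± 1.48 CPM, 8.02% of the control level, as the labels require. Lyz2, into which the Cre is inserted, averaged 7315 ± 286 CPM without and 3874 ± 254 CPM with the Cre. All 10 macrophage markers examined were present, and together they summed to between 12887 and 13140 CPM in ITGA5 fl/fl and between 12246 and 12909 in Myα5KO.

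In GRCm38, 8 of the 10 genes lie within 223860 bases of chromosome 17 (34092340 to 34316199). Cd74 and Ciita lie on other chromosomes. Of the 10 genes, 7 matched the RefSeq promoter table of GRCm38.p6, and H2-Ab1, Cd74 and Ciita did not. The 250 bases ahead of each start were searched on both strands for the X box core GCAAC and the Y box TGATTGG, which contains the Y core ATTGG. The full Y box was found ahead of the RefSeq start of 6 of the 7 genes, all but H2-DMa, against 7.23% of the 32851 promoters of the table. For H2-DMb1 and H2-Oa the stretch around the Y box overlapped an annotated exon of the same gene. These boxes may therefore not lie ahead of every annotated start. The H2-DMa windows of that table (34122582 to 34122881 and 34125268 to 34125567) lie far ahead of the deposited start of the gene (34135182). The bases just ahead of that start were not searched, so H2-DMa was left undecided for both boxes. GCAAC followed on the same strand by ATTGG at a distance of 20 to 35 bases occurred in H2-Aa, H2-Eb1, H2-Oa and H2-Ob, against 0.673% of all promoters. Single cores were common, with GCAAC in 29.9% and ATTGG in 33.8% of promoters. Such a match describes letters in a window and does not show that a factor was bound there.

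The following stretches show the X and Y boxes of H2-Aa and H2-Eb1, in which no difference between the groups was detected, beside those of H2-DMb2 and H2-Ob, which were higher in Myα5KO. Each runs 5′ to 3′ on the strand of its gene, and capitals mark GCAAC and TGATTGG. In order, the positions are chr17:34287860-34287916 (minus strand), chr17:34305763-34305819, chr17:34145114-34145170 and chr17:34238803-34238859 (all plus strand), and none overlaps an annotated exon.
H2-Aa: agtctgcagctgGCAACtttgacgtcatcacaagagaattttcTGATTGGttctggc
H2-Eb1: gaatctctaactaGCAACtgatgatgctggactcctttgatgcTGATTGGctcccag
H2-DMb2: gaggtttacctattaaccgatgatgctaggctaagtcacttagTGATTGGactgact
H2-Ob: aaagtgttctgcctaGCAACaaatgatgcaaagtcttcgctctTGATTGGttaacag

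The Y box was spelled identically in the 4 stretches, and the X core was present in 3 of them. The H2-DMb2 stretch had no GCAAC in the window, and it lies inside the deposited span of the gene (34143307 to 34151553), ahead of the RefSeq start. The gap between the end of GCAAC and the Y core was 28 bases in H2-Aa, 27 in H2-Eb1 and 25 in H2-Ob.

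The classical chains and Cd74 were among the most abundant transcripts of these cells, whereas their transactivator was scarce. Levels were compared between genes as deposited FPKM, which divides by gene length. In ITGA5 fl/fl, Cd74 averaged 3158 ± 410 FPKM (SD, n = 3) and ranked 7 of all 54532 genes. H2-Eb1 followed with 1683 ± 247 FPKM (rank 17), H2-Ab1 with 1287 ± 186 (rank 22) and H2-Aa with 1019 ± 131 (rank 30). The peptide exchange genes formed a second tier, led by H2-DMb1 with 83.0 ± 7.16 FPKM and H2-DMa with 68.9 ± 9.35. The lowest tier held the remaining genes, with H2-DMb2 at 10.1 ± 0.737 FPKM, H2-Ob at 5.96 ± 0.406, H2-Oa at 3.29 ± 0.0876 and Ciita at 2.45 ± 0.526. Together the 10 genes took between 0.909% and 1.21% of all counts of an ITGA5 fl/fl library and between 1.05% and 1.41% of a Myα5KO library.

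The order of FPKM levels from Cd74 down to H2-Oa was the same in all 6 libraries. Neighbors in this order were close within the upper tiers: H2-Ab1 stood 1.21 to 1.28 times above H2-Aa, and H2-DMb1 stood 1.13 to 1.28 times above H2-DMa. The step from H2-Aa to H2-DMb1 was 11.5 to 12.8 times in every library. H2-Oa and Ciita did not separate, since H2-Oa was the higher of the pair in 4 of 6 libraries.

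**Figure D1:**
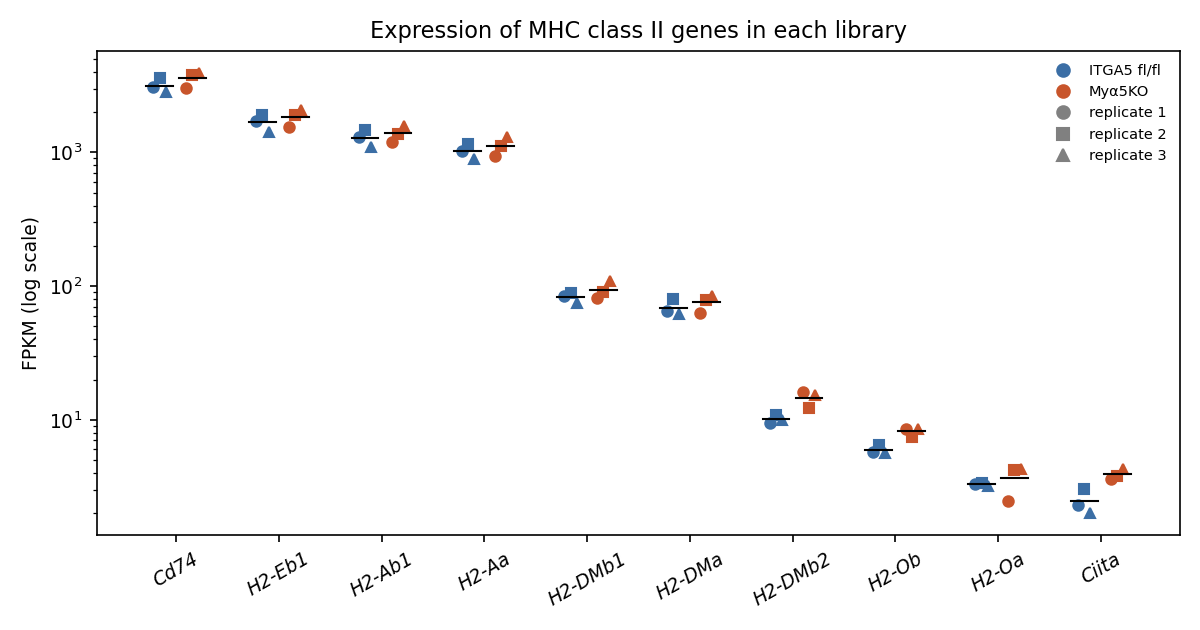
Deposited FPKM (log axis) of the 10 MHC class II genes in the 6 libraries, colored by group and shaped by replicate number, with a bar at each group mean. Cd74 and the 3 classical chains lie at 885 FPKM or above, H2-DMa and H2-DMb1 between 61.6 and 108, and the other 4 genes at 16.2 or below, and only H2-DMb2, H2-Ob and Ciita show separate groups.

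Between Myα5KO and ITGA5 fl/fl, the abundant class II transcripts differed by no more than the spread between hearts, whereas 3 scarce genes of the set were higher in Myα5KO: the transactivator Ciita, H2-DMb2, a β chain of the exchange factor H2-DM, and H2-Ob, the β chain of its inhibitor H2-DO. All 10 genes passed the filter on low counts. At an adjusted p of 0.05 or less (edgeR, quasi-likelihood test, adjusted over 14522 genes), 3 of 10 were higher in Myα5KO, against 3.56% of all tested genes. None was lower, against 5.19% of tested genes (8.75% in both directions together). The same 3 were the only ones with an unadjusted p under 0.05, and DESeq2 also called 3 higher and 0 lower. Their 3 Myα5KO libraries all lay above their 3 ITGA5 fl/fl libraries, a separation seen upward in 14.9% of tested genes, downward in 13.8% and in either direction in 28.6%. The groups of the other 7 genes overlapped. The log2 fold changes (Myα5KO over ITGA5 fl/fl) of the 10 genes were all positive, with a median of 0.17 against 0.01 over all tested genes. In such mixed samples, more cells of a type and more RNA per cell cannot be told apart.

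Ciita (chromosome 16, 10480059 to 10528418) had the largest log2 fold change of the 10 genes. Its 3 ITGA5 fl/fl libraries held 22.0, 29.2 and 19.3 CPM, and its 3 Myα5KO libraries held 34.7, 36.2 and 41.9 CPM. These rest on 328 to 497 and 651 to 797 counts per library. The lowest Myα5KO library stood above the highest ITGA5 fl/fl library, replicate 2. The log2 fold change was 0.68 (SE 0.13, adjusted p = 0.00617, edgeR), 1.60-fold with a 95% interval of 1.32 to 1.94. Over 25888 bases Ciita overlaps Dexi, a gene on the opposite strand that held 147 to 225 counts per library, and whether counting used strand is not stated.

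H2-DMb2 held 16.2, 18.8 and 17.0 CPM in ITGA5 fl/fl and 27.7, 20.9 and 26.5 CPM in Myα5KO. All Myα5KO libraries were higher, replicate 2 by the least. The log2 fold change was 0.53 (SE 0.11, adjusted p = 0.0113, edgeR), 1.44-fold with an interval of 1.22 to 1.71. Its counts are uncertain because H2-DMb1, its near copy, shares sequence with it: 21.2% of the 50-base words of H2-DMb2 transcripts also occur in H2-DMb1, and 4.14% of the words as long as a read (150 bases). H2-Ob held 18.2, 20.4 and 18.0 CPM in ITGA5 fl/fl and 27.0, 23.5 and 27.6 CPM in Myα5KO, again without overlap. Its log2 fold change was 0.46 (SE 0.10, adjusted p = 0.00969, edgeR), 1.38-fold with an interval of 1.19 to 1.59.

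These calls depended in part on a single control library. Without ITGA5 fl/fl replicate 3, Ciita was the one member still called (log2 fold change 0.55, adjusted p = 0.0316, edgeR). H2-DMb2 then stood at 0.51 (adjusted p = 0.0525) and H2-Ob at 0.43 (adjusted p = 0.0519). Leaving out any other library kept all 3 calls. With limma on log2(FPKM + 1), H2-Ob kept its call (0.40, adjusted p = 0.0395), Ciita had 0.52 (adjusted p = 0.0625) and H2-DMb2 had 0.48 (adjusted p = 0.0584).

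The chains that present peptide showed no difference beyond the spread between replicates. H2-Aa, the α chain of the A molecule, held 1927, 2166 and 1663 CPM in ITGA5 fl/fl and 1758, 2085 and 2500 CPM in Myα5KO. The ranges overlapped, with the lowest and the highest value of the 6 falling in ITGA5 fl/fl replicate 3 and Myα5KO replicate 3. Its log2 fold change was 0.14 (SE 0.12, adjusted p = 0.529, edgeR), with an interval of 0.921 to 1.32-fold. H2-Ab1, its β chain partner, ranged from 1801 to 2424 CPM in ITGA5 fl/fl and from 1952 to 2641 CPM in Myα5KO. It had a log2 fold change of 0.11 (adjusted p = 0.622) with an interval of 0.906 to 1.29-fold. H2-Eb1, the β chain of the E molecule, ranged from 1690 to 2289 CPM and from 1853 to 2492 CPM, and had a log2 fold change of 0.14 (adjusted p = 0.536) with an interval of 0.921 to 1.31-fold. C57BL/6 mice make no E molecule at the surface because the gene of its α chain is defective, and that locus, listed as H2-Ea-ps, had 0 to 3 counts per library.

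Cd74 (chromosome 18, 60803848 to 60812646) held 4324, 5129 and 3966 CPM in ITGA5 fl/fl and 4285, 5324 and 5653 CPM in Myα5KO. Replicate 1 of Myα5KO lay below 2 of the 3 control libraries and the other Myα5KO libraries above all of them. The log2 fold change was 0.19 (SE 0.11, adjusted p = 0.358, edgeR), with an interval of 0.959 to 1.35-fold. The ratio of Cd74 to H2-Aa, in FPKM and so independent of the scaling of the libraries, was 3.10 ± 0.103 in ITGA5 fl/fl and 3.21 ± 0.195 in Myα5KO (exact two-sided permutation p = 0.4, n = 3 per group, smallest possible p 0.1). The ratio of H2-Ab1 to H2-Aa was 1.26 ± 0.0207 and 1.24 ± 0.0312 (exact p = 0.5). That of H2-Eb1 to H2-Ab1 was 1.31 ± 0.0101 and 1.33 ± 0.0369 (exact p = 0.5). Adjusted over the 5 ratios computed, these p-values were each 0.625 (Benjamini-Hochberg, exact tests). The proportions of these chains varied less from library to library than their levels did.

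Of the exchange genes, the common β chain H2-DMb1 and the α chain H2-DMa were not called. H2-DMb1 held 125, 134 and 112 CPM in ITGA5 fl/fl and 121, 135 and 164 CPM in Myα5KO, a log2 fold change of 0.18 (SE 0.10, adjusted p = 0.313, edgeR) with an interval of 0.975 to 1.31-fold. H2-DMa rested on 1609 to 2687 counts per library and had a log2 fold change of 0.14 (adjusted p = 0.496, edgeR) with an interval of 0.933 to 1.30-fold. Both groups overlapped in these genes, Myα5KO replicate 1 lying within the control range each time. The ratio of H2-DMb1 to H2-DMb2 was 8.90, 8.20 and 7.61 in the control libraries. In Myα5KO it was 5.02, 7.45 and 7.11. The groups did not overlap, and the exact two-sided permutation test gave p = 0.1, the smallest possible with n = 3 per group (adjusted p = 0.5 over the 5 ratios). The difference was set most by Myα5KO replicate 1: on the log2 scale it was -0.35 with all libraries, -0.18 without that one and -0.30 to -0.46 without any other.

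H2-DO pairs an α chain, H2-Oa, with the β chain H2-Ob. H2-Oa was measured with the least precision, on 61 to 108 counts per library. It held 4.36, 4.46 and 4.21 CPM in ITGA5 fl/fl and 3.25, 5.56 and 5.68 CPM in Myα5KO, so that the Myα5KO libraries lay on both sides of a narrow control group. Its log2 fold change was 0.15 (SE 0.21, adjusted p = 0.710, edgeR), and its interval, 0.817 to 1.51-fold, contains the fold of H2-Ob. The antisense gene BC051537, which overlaps H2-Oa, had at most 4 counts in a library. The ratio of H2-DMa to H2-Oa was 20.9 ± 2.34 in ITGA5 fl/fl and 21.4 ± 3.78 in Myα5KO (exact two-sided permutation p = 0.8, adjusted p = 0.8, n = 3 per group).

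**Figure D2:**
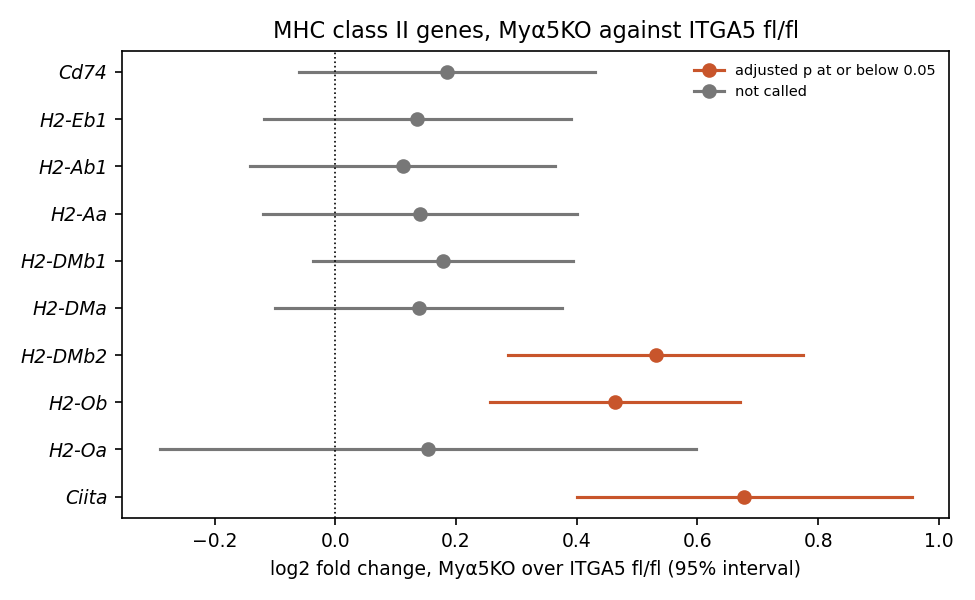
Log2 fold change (Myα5KO over ITGA5 fl/fl, edgeR) of each MHC class II gene with its 95% interval, orange where the adjusted p was 0.05 or less. Ciita (0.68), H2-DMb2 (0.53) and H2-Ob (0.46) stand clear of 0, and the other 7 lie between 0.11 and 0.19 with intervals that include it.

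For the 7 genes without a call, the range of at least one group was wider than the difference between the group means, and libraries differed largely in a shared order. In ITGA5 fl/fl replicate 2 was the highest library for all 10 genes, and the order of replicates 2, 1 and 3 held for 9 of them. In Myα5KO the order of replicates 3, 2 and 1 held for 8. The exceptions were H2-DMb2, highest in replicate 1, and H2-Ob, in which replicate 1 came second. The lowest library of Myα5KO for Cd74, the classical chains, H2-DMa, H2-DMb1 and H2-Oa was thus the highest for H2-DMb2. H2-DMb2 and H2-Ob moved together: their log2 CPM correlated (Pearson's r) at 0.98 over the 6 libraries and at 0.93 after group means were removed. After that removal H2-DMb2 correlated at -0.06 to 0.12 with Cd74, the classical chains, H2-DMa and H2-DMb1, and H2-Ob at 0.29 to 0.45. The calls of H2-DMb2 and H2-Ob may therefore not be 2 separate results.

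Summed markers of B cells and dendritic cells, which also carry class II, were higher in Myα5KO too. In both lists the lowest Myα5KO sum was close to the highest control sum. The 10 B cell markers summed to 120, 149 and 166 CPM in ITGA5 fl/fl and to 259, 167 and 192 CPM in Myα5KO. All 10 had a positive log2 fold change and none was at 0 in any library. Cd79b, a chain of the B cell receptor, passed the test (0.57, adjusted p = 0.0258, edgeR). Its call was lost without ITGA5 fl/fl replicate 1 or 2 or Myα5KO replicate 1 or 3 (adjusted p from 0.0692 to 0.0874, edgeR). Myα5KO replicate 1, with the highest B cell sum, was also the library with the most H2-DMb2. Its H2-Ob, 27.0 CPM, was close to the highest value, 27.6 CPM in Myα5KO replicate 3. Without Myα5KO replicate 1 the 3 members were still called, Ciita at 0.73 (adjusted p = 0.00566), H2-DMb2 at 0.45 (adjusted p = 0.0354) and H2-Ob at 0.43 (adjusted p = 0.0267, edgeR). The B cell sums of the remaining Myα5KO libraries, 167 and 192 CPM, were also above the highest control (166 CPM), at 116% and 132% of the control mean. The Myα5KO library with the most Ciita, replicate 3, was second in B cell markers. In ITGA5 fl/fl the highest B cell sum was in replicate 3, the control library with the least Ciita and H2-Ob and the second most H2-DMb2.

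The 10 dendritic cell markers summed to 244 to 310 CPM in ITGA5 fl/fl and to 311 to 338 CPM in Myα5KO. Of these sums Itgax alone averaged 131 and 156 CPM (0.25, adjusted p = 0.132, edgeR). The paper found Itgax in some macrophage clusters as well as in dendritic cells. Log2 fold changes were positive for 6 of 10 and negative for Xcr1 (-0.43), Siglech (-0.26), Ccr7 (-0.04) and Zbtb46 (-0.01). Only Cd209a passed the test (0.57, adjusted p = 0.0259, edgeR), though not without ITGA5 fl/fl replicate 3 or Myα5KO replicate 2 or 3 (adjusted p from 0.0721 to 0.109). The 6 monocyte markers summed to 276 to 329 CPM and to 427 to 448 CPM, and among them Ly6c2 (0.71), Ccr2 (0.58) and Spn (0.49) were higher. Of 10 macrophage markers 2 were higher, Cx3cr1 (0.44) and Fcgr1 (0.27). The other 8 had negative log2 fold changes, and none of them was called. The 8 fibroblast markers all had negative log2 fold changes, with Postn lower (-0.40), and summed to 1620 to 1899 CPM and to 1211 to 1579 CPM. The calls of Fcgr1 (without any ITGA5 fl/fl library or Myα5KO replicate 2) and of Postn (without ITGA5 fl/fl replicate 1 or 3 or Myα5KO replicate 3) were also lost, at adjusted p from 0.0552 to 0.108 (edgeR). T and NK cell markers summed to 20.3 to 24.1 CPM and to 24.6 to 25.1 CPM, nearly all of it Cd4, and 5 of the 8 were too low to be tested, Cd3d being at 0 in ITGA5 fl/fl replicates 2 and 3. The part of these cells in the class II values was not tested.

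**Figure D3:**
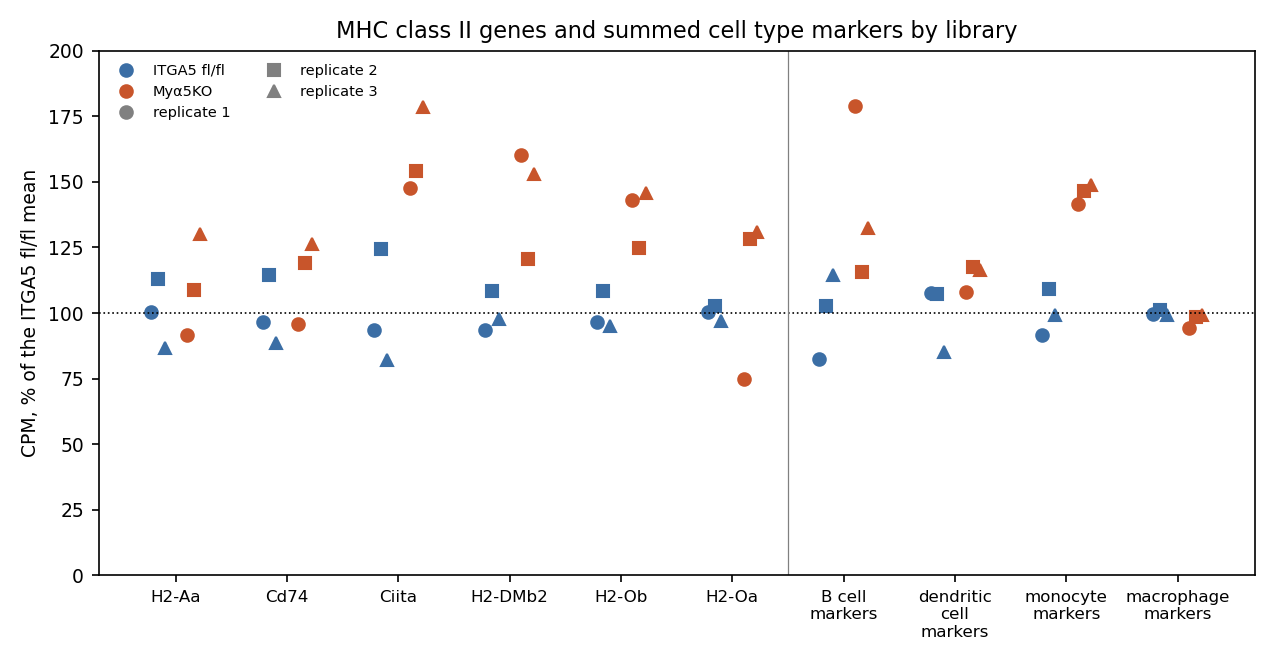
CPM of 6 MHC class II genes (left) and summed CPM of cell type markers (right) in each library, as a percentage of the ITGA5 fl/fl mean (dotted line at 100). Myα5KO replicate 1 (orange circle) is the highest library for B cell markers and H2-DMb2 and the lowest Myα5KO library for H2-Aa, Cd74, Ciita and H2-Oa, while macrophage markers stay between 94.2 and 101% in all libraries.

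Upstream of the class II genes, 18 genes that control them were listed and 17 were tested. Jak2, a kinase of the interferon-γ receptor, was lower in Myα5KO, with 266, 228 and 237 CPM in ITGA5 fl/fl against 167, 167 and 134 CPM (log2 fold change -0.64, SE 0.09, adjusted p = 0.00104, edgeR). Its groups did not overlap. Interferon-γ itself (Ifng) was at 0.266 to 0.578 CPM in all 6 libraries and was not tested.

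No difference was detected in the factors that bind the X box: Rfx5 had a log2 fold change of 0.13 (adjusted p = 0.555), Rfxap 0.02 (adjusted p = 0.947) and Rfxank 0.19 (adjusted p = 0.520, edgeR). Irf1, which drives an interferon-responsive start of Ciita, had 0.15 (adjusted p = 0.499). In Myα5KO it held 113, 149 and 175 CPM in replicates 1, 2 and 3, and Ciita was lowest and highest in the same libraries. That order was shared by 8 of the 10 class II genes and was not particular to Ciita. In ITGA5 fl/fl both genes were highest in replicate 2, but Irf1 was lowest in replicate 1 and Ciita in replicate 3. A link between Irf1 and Ciita was not tested. Without Myα5KO replicate 1, Irf1 passed the test (0.30, adjusted p = 0.0458). Among lineage factors, Irf8 had 0.18 (adjusted p = 0.104) and Spi1 -0.09 (adjusted p = 0.453, edgeR).

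The genes that prepare peptides showed no detected difference. Of 10 processing genes, none was called (edgeR), against 8.75% of all tested genes, so that a count of 0 lies near the general share. None had an unadjusted p under 0.05 (edgeR), and DESeq2 called none as well. Ctss, the protease that makes the last cuts in Cd74, averaged 3913 ± 176 CPM in ITGA5 fl/fl and 3908 ± 266 in Myα5KO. Lgmn, an asparaginyl protease, had a log2 fold change of -0.14 (adjusted p = 0.265), and Ifi30, a thiol reductase of the endosome, 0.01 (adjusted p = 0.931, edgeR). The Myα5KO libraries of Lgmn all lay below its ITGA5 fl/fl libraries, a downward separation seen in 13.8% of tested genes.

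Of the genes that govern how long class II stays at the surface, March1 differed most. March1 is a ubiquitin ligase that sends class II and CD86 to degradation. It held 30.3, 32.9 and 27.7 CPM in ITGA5 fl/fl and 44.5, 46.8 and 49.7 CPM in Myα5KO (log2 fold change 0.63, SE 0.08, adjusted p = 0.000581, edgeR). The groups lay far apart relative to their spread, and the call held with each library left out. March8, a related ligase, and Cd83, which opposes March1, were not called.

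Among 7 tested neighbors of the class II genes on chromosome 17, 2 genes of the class I route were higher, against 3.56% of all tested genes. These were Tap1, a peptide transporter (0.31, adjusted p = 0.0293), and Psmb8, a subunit of the immunoproteasome (0.26, adjusted p = 0.0444, edgeR). Both calls were near the threshold and were lost without ITGA5 fl/fl replicate 1 or 3 or Myα5KO replicate 2 or 3 (adjusted p from 0.0742 to 0.166, edgeR). Tap2, Psmb9, H2-Eb2, Brd2 and Btnl2 were not called.

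**Figure D4:**
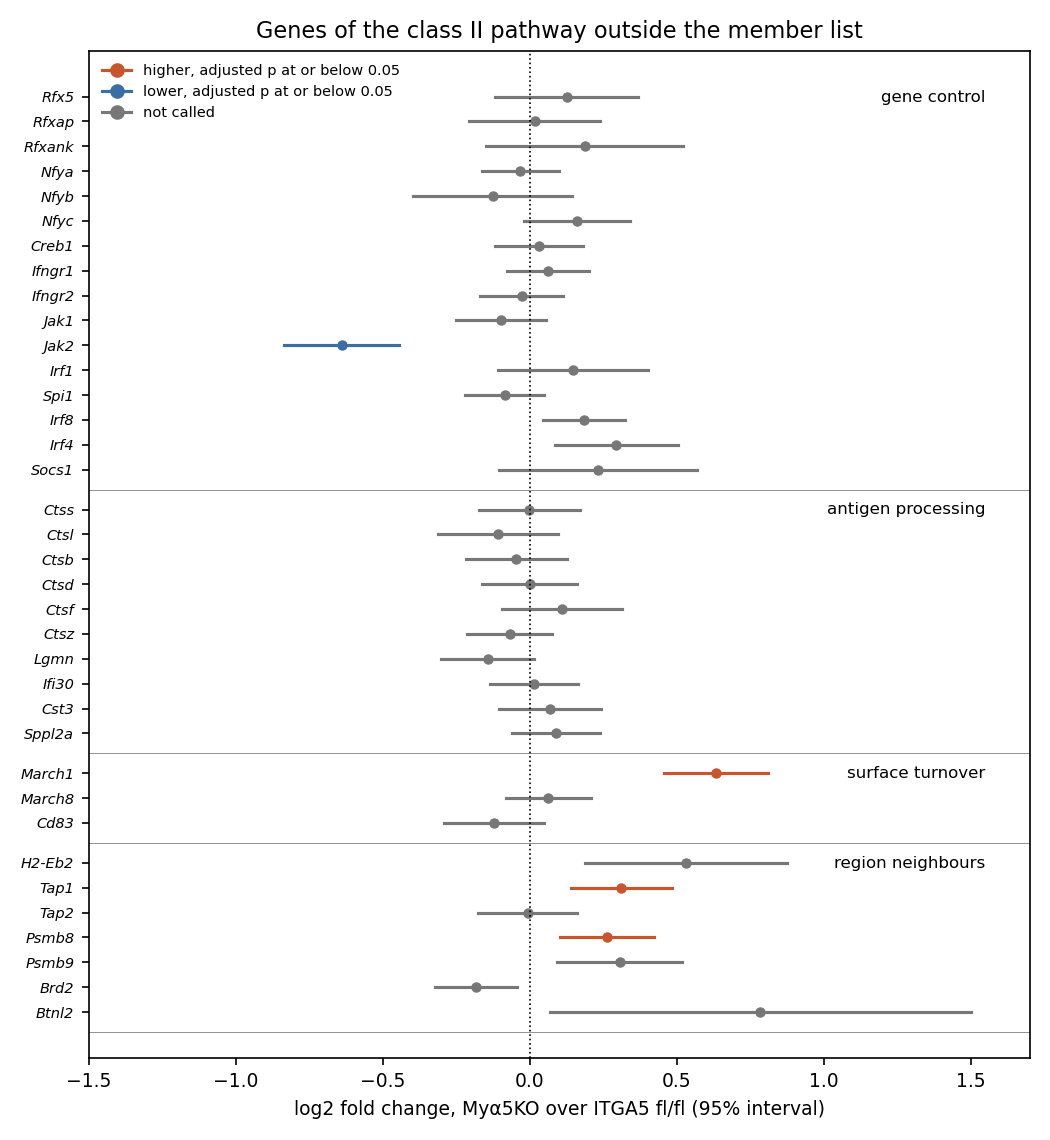
Log2 fold change (Myα5KO over ITGA5 fl/fl, edgeR) with 95% interval of tested genes that control class II genes, process antigen, govern surface turnover or neighbor the class II genes on chromosome 17. March1, Tap1 and Psmb8 were higher and Jak2 lower at an adjusted p of 0.05 or less, and the 10 processing genes lie close to 0.

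The genes whose levels followed the abundant chains most closely were looked up among 9352 tested genes with a mean of at least 100 counts. By Pearson's r of log2 CPM over the 6 libraries with the mean of H2-Aa, H2-Ab1, H2-Eb1 and Cd74, these included Tctn1 (0.983), H2-T10 (0.982), Phf21a (0.969) and B2m (0.967). None of these was called between the groups (adjusted p from 0.300 to 0.863, edgeR). H2-T10 belongs to a family of similar class I genes, so its counts are uncertain. H2-Oa and H2-Ob correlated with each other at only 0.10, so a gene close to their mean need not follow each chain. For that mean the closest genes were Ier5l (0.997), Trap1 (0.994), Zup1 (0.990), Dcakd (0.989) and AU020206 (0.989). With so many genes compared over 6 libraries, values this high are a description and carry no test.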

How the data were processed

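RNA of Ly6G- CD11b+ cells from single hearts was sequenced as paired-end reads of 150 bases (polyadenylated RNA, non-UMI libraries). According to the submitters' processing notes, TopHat2 2.0.9, HTSeq 0.6.1 and Cufflinks 2.1.1 were used with mm10 (GRCm38.p6). The authors deposited whole-number counts per gene without normalization. The authors also deposited FPKM, which equal the count divided by gene length and by a constant per library proportional to its DESeq2 size factor. Treatment of multi-mapped reads and of strand is not given in the sources used here. The tables hold no column of another sample. Library totals ran from 15424451 to 18152357 counts in ITGA5 fl/fl and from 18232574 to 18419287 in Myα5KO. P-values measure the spread between these hearts.

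Counts of all genes were fitted with edgeR 4.0.16 (R 4.3.3, TMM, filterByExpr with minimum count 10 and minimum total 15, glmQLFTest by group, no covariate), with two-sided p-values adjusted by Benjamini-Hochberg over 14522 genes and a threshold of 0.05. SE and 95% intervals derive from the quasi-likelihood F and its degrees of freedom. CPM use TMM-scaled library sizes. Alternatives were DESeq2 1.42.0, limma 3.58.1 on log2(FPKM + 1) and log2(FPKM + 0.1), for genes at an FPKM of at least 1 in 3 libraries, other scalings and filters, a replicate block and each library left out. On simulated data of 14522 genes the edgeR test recovered 57.1% of genes changed by 0.5 on the log2 scale, 77.8% at 1 and 98.6% at 2, and 8.67% of its 173 calls were false. The 10 genes, the pathway and marker lists and the tests were chosen with earlier results of these data known. Named genes are the 10 members, listed genes that passed the test, selected regulators and processing genes, and the 5 most alike genes for 2 templates, and the remaining tested neighbors and turnover genes were named after their values were seen. Promoter windows came from RefSeq. Some listed genes are not reported here.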

Additional observations from a re-analysis of the deposited data

How the results depend on the processing

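Log2 fold changes of Ciita, H2-DMb2 and H2-Ob kept their direction under all 14 alternatives. The count of members called higher was 3 throughout, except 1 on log2(FPKM + 1) and on log2(FPKM + 0.1), and 1 to 3 with single libraries left out. Higher genes of class II control numbered 1, against 3 with library totals, 2 without a filter, 0 on both FPKM scales and 1 to 2 with a library left out. Higher neighbors on chromosome 17 numbered 2, against 1 with median-ratio scaling or at least 10 counts in every library, 4 with library totals or no filter, 0 on FPKM and 0 to 3 with a library left out, and DESeq2 called 1 lower. Over all genes 517 were higher and 754 lower, against 1212 higher with library totals, 798 higher without a filter, and 150 and 142 higher and 322 and 306 lower on the FPKM scales. With single libraries left out, 187 to 420 were higher and 429 to 671 lower. The causes were not tested. Library totals moved the median of all genes from 0.01 to 0.10.

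Values near 0 changed sign. With single libraries left out, H2-Ab1 ranged from -0.0039 to 0.22, Rfxap from -0.072 to 0.083, Irf1 from -0.0066 to 0.30, Ctss from -0.059 to 0.035 and Ifi30 from -0.029 to 0.052. Ctss stood at 0.079 with library totals and at 0.0052 without a filter, and Ifi30 at -0.0017 with at least 10 counts in every library. Irf8 passed the test with library totals (0.26).

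Deviations from the group means correlated at 0.05, -0.06 and 0.04 between same-numbered samples. Between differently numbered samples they correlated at -0.10 to 0.06. With 3 libraries per group these values cannot decide whether same-numbered samples shared a batch. With the replicate block 3 members were higher and 0 lower, and 464 genes were higher and 717 lower. The block changed no call of a member.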
